A study of Mus musculus with 16 samples.

Results

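The 10 immediate early response genes examined here are *Fos*, *Fosb*, *Jun*, *Junb*, *Atf3*, *Egr1*, *Egr2*, *Egr3*, *Nr4a1* and *Ier2*, taken by gene symbol from a table of 55414 genes. All 10 had enough counts in these cells to be tested, among 15693 genes that were. RNA sequencing was performed on mouse lung endothelial cells (MLECs), isolated with CD31- and then ICAM2-coated beads from mice carrying floxed *Eng* alleles (*Eng* fl/fl), *Rosa26-Cre* ERT2 and the Immorto transgene on a C57BL/6 background. *Eng* encodes endoglin (ENG), a co-receptor for bone morphogenetic protein 9 (BMP9). Control (Ctrl) cells kept *Eng*, and in KO cells its knockout was induced by 4-OH-tamoxifen in culture. *Eng* RNA was reduced but not absent in KO cells, with values given below. All cells were first grown with interferon-γ and the ALK5 inhibitor SB431542. These and 4-OH-tamoxifen were left out of the medium before the cells were serum-starved overnight and treated. The 4 groups of 4 libraries were Ctrl cells in PBS, Ctrl cells with sENG(M):BMP9 (BMP9 bound to monomeric soluble endoglin), KO cells in PBS and KO cells with pro:BMP9 (BMP9 bound to its prodomain). Each ligand was dosed by its BMP9 growth factor domain, at 0.2 ng/ml, and all cells were lysed at 90 min. The study's methods state a large excess of soluble endoglin with sENG(M):BMP9 and name none with PBS or pro:BMP9. In Ctrl cells, BMP9 and this excess therefore cannot be told apart where ligand and PBS are compared. Replicate numbers 1 to 4 mark 4 isolations of cells, each of which supplied 1 library to every group. *Rosa26* drives Cre in every cell type rather than in endothelium alone. Tamoxifen was given only to KO cells, and the form of the ligand, with its excess soluble endoglin, changed with genotype. Where KO and Ctrl cells are compared, *Eng* loss, tamoxifen exposure, ligand form and excess soluble endoglin therefore cannot be told apart.

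Immediate early genes are transcribed soon after a cell is stimulated, without new protein synthesis, and most encode transcription factors with short-lived mRNAs. Serum response factor (SRF) with its ternary complex partners at CArG boxes, and CREB at cAMP response elements, are the classical activators, acting downstream of MAP kinase and of cAMP or calcium. FOS and JUN proteins pair to form the dimers of activator protein 1 (AP-1), EGR proteins are zinc finger factors, and NR4A1 is an orphan nuclear receptor. BMP9 signals in endothelial cells through the type I receptor ALK1 and phosphorylation of SMAD1 and SMAD5, whose target genes include *Id1*, *Smad6* and *Atoh8*. At 90 min the transient first wave of an immediate early response is usually past its peak, and a single time point was measured.

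The bases before the annotated start are shown for 4 genes, each with a searched motif in the printed bases. Members that are not shown, such as *Fosb*, also had motifs there. The 250 bases before the GENCODE transcript start of 9 members were read from the GRCm39 genome on the gene's own strand and searched on both strands. The motifs were the CArG box, the cAMP response element TGACGTCA and its core TGACG, which overlaps the whole element, the AP-1 site TGANTCA, the GC-rich SMAD1/5 element GGCGCC and the TATA box TATAAA. Each line gives the last 120 bases before the start, 5′ to 3′, with the motifs found in capitals.
*Egr2*, chr10:67373572-67373691, plus strand: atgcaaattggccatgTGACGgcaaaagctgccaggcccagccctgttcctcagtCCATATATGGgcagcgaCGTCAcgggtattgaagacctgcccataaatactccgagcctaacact
*Fos*, chr12:85520538-85520657, plus strand: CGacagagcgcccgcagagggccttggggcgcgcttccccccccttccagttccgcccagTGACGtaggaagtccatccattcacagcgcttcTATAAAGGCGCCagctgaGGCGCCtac
*Junb*, chr8:85705348-85705467, minus strand: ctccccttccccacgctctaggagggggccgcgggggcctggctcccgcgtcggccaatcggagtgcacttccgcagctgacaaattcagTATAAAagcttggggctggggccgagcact
*Ier2*, chr8:85389484-85389603, minus strand: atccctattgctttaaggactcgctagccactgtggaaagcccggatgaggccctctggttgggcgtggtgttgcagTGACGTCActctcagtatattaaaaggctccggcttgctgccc

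*Egr2* carried a CArG box followed by an inverted TGACG, with the box starting 65 bases before the start. It was the 1 member of the 9 with a CArG box in the 250 bases searched, taken as CCWWWWWWGG with W for A or T. That motif was in 1.40% of 21770 promoters of that length. Boxes farther from the start or with a mismatch were not searched for. *Ier2* was the member with a complete TGACGTCA, a motif in 1.69% of promoters, and the core TGACG lay in 7 of the 9 and in 18.0% of promoters. GGCGCC was found in *Fos* and *Fosb* (9.31% of promoters), TATAAA in *Fos*, *Junb* and *Nr4a1* (11.9%), and TGANTCA in none of the 9 (6.17%). The capitals that open the *Fos* line are the end of a TGACG that begins before the window. These matches describe the letters in the window and are not evidence of binding.

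The libraries held 14869115 to 17242117 counts each. *Eng* was at 375 to 594 CPM (counts scaled to a common library size) in Ctrl PBS and at 525 to 776 with sENG(M):BMP9. It was lower in the KO libraries, as their labels state, at 40.1 to 60.0 CPM in KO PBS and 114.5 to 129.8 with pro:BMP9. *Id1*, *Smad6* and *Atoh8* rose with the ligand in both genotypes, by 2.51, 3.45 and 3.64 on the log2 scale in Ctrl cells and by 2.55, 3.21 and 3.62 in KO cells. The endothelial markers *Pecam1* and *Cdh5* were at 703 CPM or more in every library, and *Tie1* was at 316 to 939 CPM. The other endothelial markers were lower, with *Kdr* at 26.2 to 209 CPM, *Tek* at 43.3 to 95.8 and *Icam2* at 50.01 to 118. *Vwf* varied widely, at 47 to 665 counts (2.83 to 42.998 CPM). The 4 epithelial markers summed to 0.131 to 4.09 CPM, with *Sftpc* at 0 counts in all 16 and *Cdh1* at up to 62 counts. The leukocyte markers *Ptprc*, *Adgre1* and *Cd3e* did not exceed 6 counts. The leukocyte marker *Cd68* was at 460 to 630 counts. The summed level of 6 mural and fibroblast markers was 70.7 to 84.3 CPM in the 4 libraries of isolation 2 and 314 to 644 CPM in those of the other isolations. In bulk RNA, fewer cells of a type and less RNA per cell cannot be told apart.

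Set against each other per deposited gene length, the JUN genes were the most abundant members and the FOS genes were among the lowest. Levels were scaled for library size and for the deposited gene length (RPKM). In Ctrl PBS libraries they averaged 69.3 ± 8.06 (SD, n = 4) for *Junb* and 66.6 ± 9.49 for *Jun*, which did not differ beyond their spread. *Atf3* followed at 31.0 ± 11.97 RPKM, then *Ier2* at 18.6, *Egr1* at 14.6 and *Nr4a1* at 7.496. *Fos* was at 2.64 ± 1.57 RPKM, *Egr2* at 1.21, *Egr3* at 1.05 and *Fosb* at 0.632 ± 0.134. The summed level of *Jun* and *Junb* was 53.4 ± 32.3 times that of *Fos* and *Fosb* in Ctrl PBS libraries. Among other AP-1 genes, *Jund* was at 99.3 RPKM and the FOS relatives *Fosl1* and *Fosl2* were at 59.6 and 16.01. The low members rest on few reads, with 29 to 99 counts of *Fosb*, 38 to 162 of *Fos*, 21 to 239 of *Egr2* and 57 to 144 of *Egr3* in a library.

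The ligand moved these genes in both directions. In Ctrl cells, sENG(M):BMP9 raised *Junb* and *Egr2* and lowered *Egr1* and *Atf3*, while the fitted log2 values of *Jun*, *Ier2* and *Fosb* were 0.01, -0.01 and -0.06. In KO cells, pro:BMP9 raised *Junb*, *Fosb*, *Egr2* and *Nr4a1* and lowered *Egr1*. *Junb*, *Egr1* and *Egr2* passed the test in both genotypes, in the same direction in each. By edgeR's quasi-likelihood test with isolation as a block, 4 of 10 members passed an adjusted p of 0.05 in Ctrl cells, where 9.69% of all tested genes did (5.86% higher and 3.83% lower). In KO cells 5 of 10 passed, beside 5.59% of all tested genes (3.68% higher and 1.92% lower). The median log2 fold change of the members was 0.14 in Ctrl and 0.38 in KO cells, against -0.01 and 0.00 over all tested genes. The replicate block mattered for these counts, since without it 1 member, *Junb*, passed in each genotype.

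**Figure D1:**
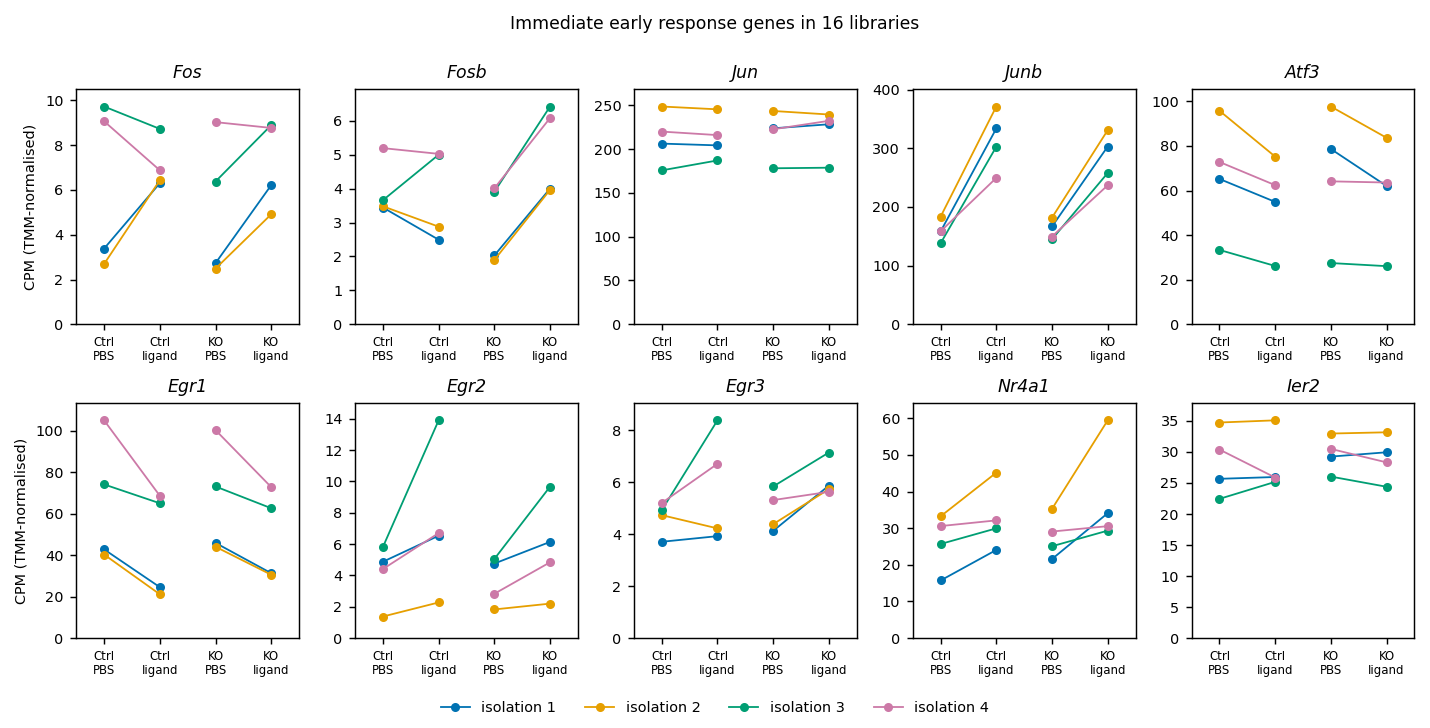
Level of each gene in CPM (y axes, from 0) in the 4 groups (x axes), with 1 point per library and a line joining the PBS and ligand libraries of the same isolation. *Junb* rose along every line and *Egr1* fell along every line, while the lines of *Jun* are nearly flat.

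Of the JUN members, *Junb* passed the test in both genotypes and *Jun* in neither. *Junb*, on chromosome 8 (85701113 to 85705347, minus strand, 1 exon in the canonical transcript), encodes a JUN family partner of FOS proteins that is a weaker transactivator than JUN in many settings. In isolations 1 to 4, Ctrl cells held 158, 183, 138 and 158 CPM of *Junb* in PBS and 334, 371, 303 and 249 CPM with sENG(M):BMP9. KO cells held 167, 182, 145 and 149.6 CPM in PBS and 303, 331, 258 and 237 CPM with pro:BMP9. In both genotypes every ligand library lay above every PBS library, and the rise was smallest in isolation 4. The fitted rise was 1.96-fold in Ctrl cells (log2 0.97, SE 0.0569, edgeR adjusted p = 9.46e-10) and 1.75-fold in KO cells (log2 0.81, SE 0.0569, edgeR adjusted p = 1.94e-08). It kept its direction and its call in all 19 alternative settings in each genotype, with log2 values from 0.92 to 1.07 in Ctrl and from 0.78 to 0.85 in KO cells when isolations or libraries were left out.

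*Jun*, on chromosome 4 (94937271 to 94940459, minus strand, 1 exon), is the founding JUN gene and was as abundant as *Junb* before treatment. Ctrl cells held 206, 248, 176 and 219.9 CPM of *Jun* in PBS and 204, 245, 187 and 216 CPM with the ligand. KO cells held 224, 243, 178 and 223 CPM in PBS and 228, 239, 179 and 232 CPM with the ligand. The order of the isolations was nearly constant and the groups overlapped fully. The 95% interval of the log2 ligand change ran from -0.08 to 0.09 in Ctrl cells and from -0.06 to 0.10 in KO cells.

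The balance of the JUN genes therefore shifted within each library, on a scale that does not depend on library size. The RPKM ratio of *Junb* to *Jun* was 1.04 ± 0.0407 (SD, n = 4) in Ctrl PBS and 2.05 ± 0.309 with sENG(M):BMP9, and 1.03 ± 0.0806 in KO PBS and 1.79 ± 0.260 with pro:BMP9. The PBS libraries ranged from 0.932 to 1.13 in both genotypes and the ligand libraries from 1.41 to 2.26, without overlap. Isolation 4 had the lowest ligand ratio in each genotype, at 1.60 in Ctrl and 1.41 in KO cells.

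**Figure D2:**
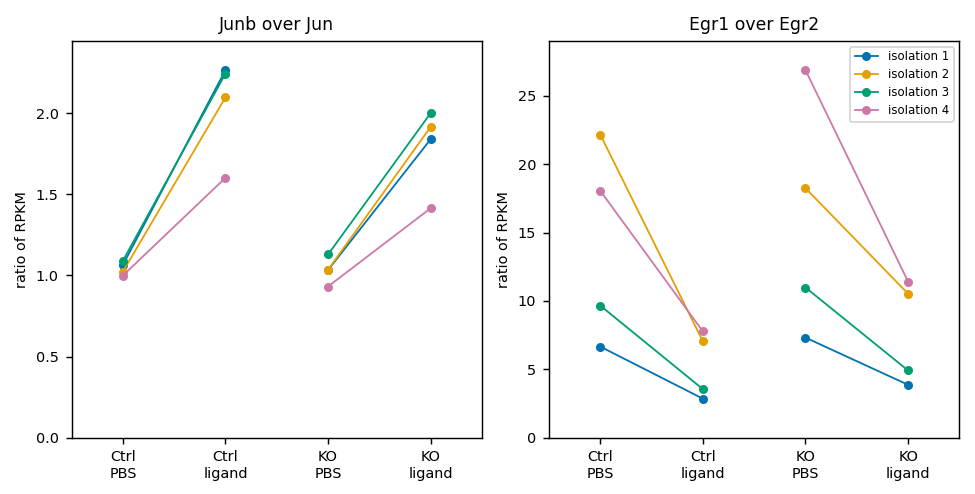
RPKM ratio of *Junb* to *Jun* (left) and of *Egr1* to *Egr2* (right) in each library, by group, with lines joining the libraries of an isolation. The *Junb* to *Jun* ratio lay near 1 in PBS and between 1.41 and 2.26 with ligand, and the *Egr1* to *Egr2* ratio fell along every line.

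The FOS genes were low and varied with the isolation. *Fos* (chromosome 12, 85520664 to 85524047, plus strand, 4 exons) was at 3.38, 2.69, 9.72 and 9.06 CPM in Ctrl PBS and at 6.30, 6.43, 8.72 and 6.88 CPM with sENG(M):BMP9. In KO cells it was at 2.73, 2.49, 6.37 and 9.02 CPM in PBS and at 6.21, 4.91, 8.89 and 8.76 CPM with pro:BMP9. Isolations 1 and 2 started low in PBS and were higher with the ligand in both genotypes, whereas isolations 3 and 4 started higher, and the ligand libraries covered a narrower range than the PBS libraries. Per isolation, the log2 change in Ctrl cells was 0.87, 1.22, -0.15 and -0.39, and in KO cells 1.15, 0.95, 0.47 and -0.04. The fitted change of 0.27 (SE 0.222, edgeR adjusted p = 0.592) in Ctrl and 0.53 (SE 0.229, edgeR adjusted p = 0.276) in KO cells did not pass the test. Without isolation 4 the KO value was 0.83 and passed (edgeR adjusted p = 0.0493). A KO call was also made without a filter on low counts (adjusted p = 0.00310) and by the study's own steps of quantile normalisation, ComBat and DESeq2 (adjusted p = 0.0159).

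*Fosb*, on chromosome 7 (19036621 to 19043976, minus strand, 4 exons), encodes a FOS family member, of which a truncated splice form is known. Reads here are summed over its transcripts. It held 3.44, 3.48, 3.66 and 5.20 CPM in Ctrl PBS and 2.50, 2.88, 5.001 and 5.03 CPM with sENG(M):BMP9, with 3 isolations lower and 1 higher. In KO cells it held 2.03, 1.90, 3.91 and 4.01 CPM in PBS and 4.002, 3.97, 6.42 and 6.08 CPM with pro:BMP9, and all 4 isolations were higher. The KO change was 1.74-fold (log2 0.80, SE 0.157, edgeR adjusted p = 2.67e-03), and the Ctrl change was -0.06 (95% interval -0.38 to 0.27, edgeR adjusted p = 0.918). The KO call was lost in the fit without the replicate block alone (log2 0.79, adjusted p = 0.860).

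*Atf3*, on chromosome 1 (190902493 to 190950236, minus strand, 4 exons), encodes a stress-induced factor that pairs with JUN proteins and often represses transcription. It was lower with the ligand in all 4 isolations of each genotype, going from 65.2, 95.8, 33.4 and 72.8 CPM to 54.9, 75.2, 26.2 and 62.4 CPM in Ctrl cells. In KO cells it was at 78.6, 97.7, 27.5 and 64.1 CPM in PBS and at 62.0, 83.6, 26.1 and 63.6 CPM with the ligand. The groups overlapped widely, because isolation 3 lay between 26.1 and 33.4 CPM and isolation 2 between 75.2 and 97.7 CPM. The log2 change of -0.29 in Ctrl cells (SE 0.0689, edgeR adjusted p = 8.36e-03) passed the test and corresponds to a fall of 18.2%, while that of -0.17 in KO cells (SE 0.0689, edgeR adjusted p = 0.214) did not. Without isolation 2 the Ctrl value was -0.27 and no longer passed (edgeR adjusted p = 0.107).

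**Figure D3:**
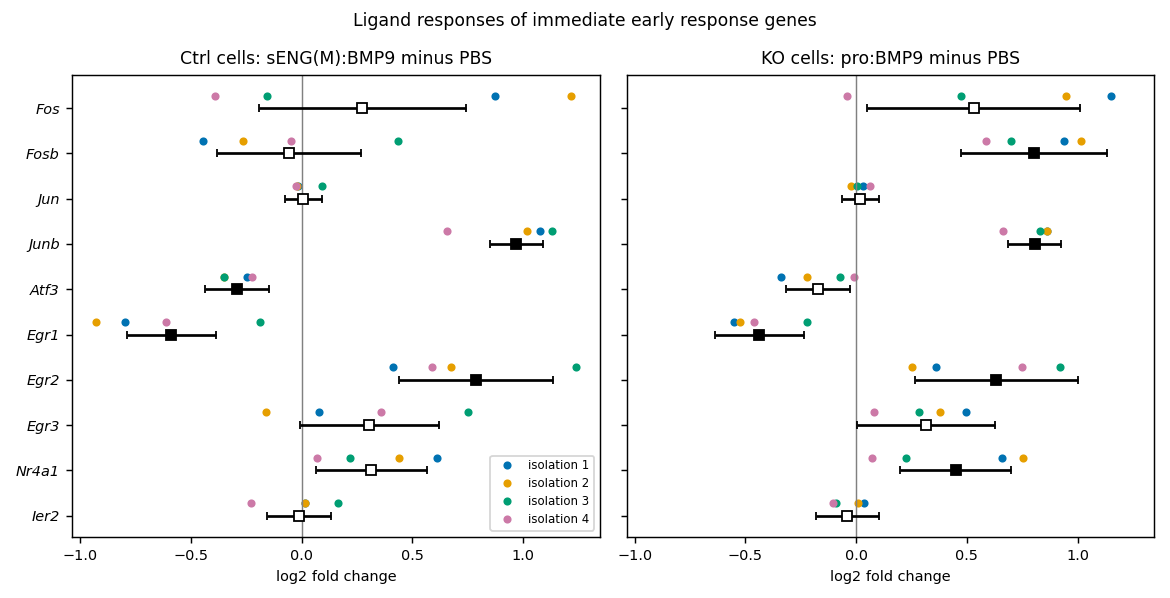
Fitted log2 fold change of each gene with the ligand against PBS (x axes), in Ctrl cells (left) and KO cells (right). Squares with bars are the edgeR fit with its 95% interval, filled where the adjusted p was under 0.05, and coloured points are the changes of single isolations. *Junb* and *Egr2* lie to the right and *Egr1* to the left in both panels, and *Fos* has the widest spread of isolations.

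The EGR genes moved apart, with *Egr1* lower and *Egr2* higher after the ligand. *Egr1* (chromosome 18, 34992876 to 34998037, plus strand, 2 exons) encodes the EGR factor most often used as a marker of growth factor and shear responses in endothelium. In Ctrl cells it was at 42.8, 40.3, 74.2 and 105 CPM in PBS and at 24.6, 21.2, 65.1 and 68.7 CPM with sENG(M):BMP9. In KO cells it was at 45.9, 44.1, 73.2 and 100.4 CPM in PBS and at 31.3, 30.6, 62.7 and 72.9 CPM with pro:BMP9. Every isolation fell, and isolation 3 fell least in both genotypes, but the groups overlapped because isolations 3 and 4 were higher than 1 and 2 throughout. The log2 change was -0.59 in Ctrl cells (SE 0.0953, edgeR adjusted p = 2.64e-04), a fall of 33.5%, and -0.44 in KO cells (SE 0.0950, edgeR adjusted p = 6.53e-03), a fall of 26.1%. The KO call was lost without isolation 1 (edgeR adjusted p = 0.0597) or isolation 4 (edgeR adjusted p = 0.0540), with log2 values of -0.41 and -0.43.

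*Egr2*, on chromosome 10 (67371305 to 67378018, plus strand, 2 exons), encodes the EGR factor also known as Krox20. Its counts were low, with 75, 21, 97 and 73 in Ctrl PBS and 110, 34, 239 and 116 in Ctrl sENG(M):BMP9 libraries. In CPM this was 4.87, 1.38, 5.82 and 4.41 in PBS and 6.54, 2.28, 13.9 and 6.70 with the ligand. KO cells had 4.76, 1.83, 5.05 and 2.83 CPM in PBS and 6.14, 2.20, 9.67 and 4.84 CPM with pro:BMP9. Isolation 2 was lowest and isolation 3 highest in every group, and isolation 3 also had the largest rise in each genotype. The rise was 1.73-fold in Ctrl cells (log2 0.79, SE 0.165, edgeR adjusted p = 2.97e-03) and 1.55-fold in KO cells (log2 0.63, SE 0.175, edgeR adjusted p = 0.0386). Without isolation 3 the Ctrl value was 0.55 and did not pass (edgeR adjusted p = 0.104).

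The KO call for *Egr2* was the least stable of the members, being lost in 12 of 19 alternative settings while the value stayed between 0.48 and 0.77. These were the fit without the replicate block (edgeR adjusted p = 1.00), DESeq2 (adjusted p = 0.102), and 10 leave-outs. Removing isolations 1 to 4 gave 0.0560, 0.0637, 0.270 and 0.152 as adjusted p. Removing the KO pro:BMP9 libraries 1 to 4 gave 0.0928, 0.0805, 0.154 and 0.0639, and removing KO PBS libraries 3 or 4 gave 0.231 and 0.149.

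*Egr3* (chromosome 14, 70314652 to 70320063, plus strand, 2 exons), an EGR gene with a known role downstream of vascular endothelial growth factor, did not pass the test in either genotype. It was at 3.70, 4.73, 4.92 and 5.20 CPM in Ctrl PBS and at 3.92, 4.22, 8.37 and 6.70 CPM with sENG(M):BMP9. KO cells had 4.12, 4.38, 5.83 and 5.31 CPM in PBS and 5.87, 5.73, 7.14 and 5.63 CPM with pro:BMP9, each isolation higher. The fitted changes were alike in size, at 0.31 (95% interval -0.01 to 0.62, edgeR adjusted p = 0.269) in Ctrl and 0.32 (0.01 to 0.63, edgeR adjusted p = 0.341) in KO cells.

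Per length, *Egr1* stayed the most abundant EGR gene in every library, but its lead over *Egr2* narrowed. The RPKM ratio of *Egr1* to *Egr2* was 14.1 ± 7.20 (SD, n = 4) in Ctrl PBS and 5.30 ± 2.46 with the ligand, and 15.9 ± 8.64 in KO PBS and 7.68 ± 3.84 with the ligand. Within isolations 1 to 4 it went from 6.66, 22.2, 9.66 and 18.1 to 2.85, 7.04, 3.55 and 7.77 in Ctrl cells. In KO cells it went from 7.32, 18.2, 10.98 and 26.9 to 3.87, 10.5, 4.91 and 11.4. The ratio was lower with the ligand in all 8 pairs of libraries.

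*Nr4a1* (chromosome 15, 101152150 to 101172676, plus strand, 7 exons), encoding the nuclear receptor also called NUR77, was at 15.7, 33.2, 25.7 and 30.6 CPM in Ctrl PBS and at 24.1, 45.1, 29.9 and 32.1 CPM with sENG(M):BMP9. KO cells had 21.6, 35.3, 25.1 and 29.1 CPM in PBS and 34.1, 59.4, 29.3 and 30.5 CPM with pro:BMP9. All 8 changes were upward, and those of isolations 1 and 2 (0.44 to 0.75 on the log2 scale) exceeded those of isolations 3 and 4 (0.07 to 0.23). The KO rise of 0.45 (SE 0.118, edgeR adjusted p = 0.0282) passed the test, and the Ctrl rise of 0.31 (SE 0.120, edgeR adjusted p = 0.125) did not. The KO call was lost without isolation 1 (edgeR adjusted p = 0.104) or 2 (0.370), without KO PBS library 1 (0.0638), 2 (0.155) or 3 (0.0630), and without KO pro:BMP9 library 1 (0.145) or 2 (0.196). The Ctrl value passed without isolation 4 (edgeR adjusted p = 0.0434) or Ctrl PBS library 4 (0.0398).

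*Ier2* (chromosome 8, 85387960 to 85389483, minus strand, 1 exon), which encodes a small nuclear protein and carried the complete cAMP response element, did not pass the test in either genotype. Its level ranged from 22.4 to 34.7 CPM in Ctrl PBS, 25.2 to 35.1 with sENG(M):BMP9, 26.0 to 33.0 in KO PBS and 24.4 to 33.2 with pro:BMP9. The 95% interval of its log2 ligand change was -0.16 to 0.13 in Ctrl and -0.18 to 0.10 in KO cells.

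Without ligand, none of these genes had a called change between KO and Ctrl cells, which also differed in tamoxifen exposure. In PBS, 0 of 10 members passed in KO against Ctrl cells, beside 3 of all tested genes (0.0191%). An unadjusted p under 0.05 in edgeR was found for 1 of the 10 members and for 1071 of the 15693 tested genes. That member was *Fosb*, lower in 3 of 4 isolations (log2 -0.43, 95% interval -0.77 to -0.10, edgeR adjusted p = 0.597). For *Jun*, *Junb*, *Atf3* and *Ier2* the intervals lay within 0.22 of zero, and the widest interval was that of *Fos*, from -0.75 to 0.22. DESeq2 with the isolation also called 0 members. The summed level of the 6 mural and fibroblast markers was lower in KO than in Ctrl cells of every isolation, at 555, 79.6, 626 and 484 CPM in Ctrl PBS and 403, 73.5, 546 and 329 CPM in KO PBS. With the ligand it was at 561, 84.3, 644 and 499 CPM in Ctrl and 427, 70.7, 538 and 314 CPM in KO cells. The part of this difference in the comparisons of KO with Ctrl cells was not tested.

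In ligand-treated cells, 0 of 10 members passed in KO cells with pro:BMP9 against Ctrl cells with sENG(M):BMP9, where 0.255% of tested genes did. An unadjusted p under 0.05 in edgeR was found for 3 of the 10 members and for 1454 of the 15693 tested genes. KO cells of every isolation held less *Junb* than their Ctrl counterparts, with a log2 difference of -0.15 (95% interval -0.27 to -0.04, edgeR adjusted p = 0.306). *Egr2* was likewise lower in all 4 (log2 -0.34, -0.67 to 0.00, edgeR adjusted p = 0.538), and *Fosb* was higher in all 4 (log2 0.42, 0.11 to 0.74, edgeR adjusted p = 0.294). The *Junb* value passed without isolation 4 (-0.18, edgeR adjusted p = 0.0268) and without Ctrl sENG(M):BMP9 library 4 (-0.22, edgeR adjusted p = 0.0347). It also passed without a filter on low counts (adjusted p = 0.0207) and by the study's own steps (adjusted p = 8.14e-03). The same libraries enter this comparison and those with the ligand above, so they are not independent of each other.

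The difference of the ligand responses between genotypes was tested as an interaction, and 0 of 10 members and 0 of all tested genes (0%) passed in edgeR. At an unadjusted p under 0.05 there were 565 genes, 1 of them a member, and DESeq2 called 20 genes and 0 members. That member was *Fosb*, whose response was larger in KO than in Ctrl cells in all 4 isolations, by 1.38, 1.28, 0.26 and 0.63 on the log2 scale. The fitted difference was 0.86 (SE 0.221, 95% interval 0.39 to 1.32), with the 14th smallest p of all tested genes (unadjusted p = 1.09e-03 in edgeR, adjusted p = 1.00). Over the alternative settings the adjusted p ranged from 0.0720 to 1.00. The PBS libraries entered this difference. In PBS, *Fosb* was lower in KO cells of isolations 1, 2 and 4 (2.03, 1.90 and 4.01 CPM against 3.44, 3.48 and 5.20 CPM). In isolation 3 it was higher (3.91 against 3.66 CPM). Ctrl PBS library 4 is flagged below as standing apart for *Fosb*. For *Junb* the response was smaller in KO cells by 0.16 (95% interval -0.33 to 0.00, edgeR adjusted p = 1.00), and for *Egr1*, *Egr2*, *Egr3* and *Nr4a1* the intervals spanned zero and reached at least 0.43 on one side. Differences of that size lie within what these intervals allow for the 4 genes.

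For 8 of the 10 members most of the variation lay between isolations. Of the sum of squares of log2 CPM over the 16 libraries, isolation held 94.5% for *Atf3*, 92.8% for *Jun*, 80.9% for *Ier2*, 78.8% for *Egr1* and 77.5% for *Egr2*. *Egr3* had 49.7% for isolation, and *Junb* had 10.5% for isolation and 85.9% for ligand. The ligand share was 21.2% for *Nr4a1*, 21.1% for *Egr3*, 15.9% for *Egr1*, 15.3% for *Fos* and 15.1% for *Egr2*, and under 1% for *Jun* and *Ier2*. Genotype held at most 3.43% for any member. *Fosb* had the largest share for the interaction of ligand and genotype, at 21.5%, followed by *Fos* at 0.892%. Residual shares were highest for *Egr3* (26.1%) and *Fos* (21.6%).

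**Figure D4:**
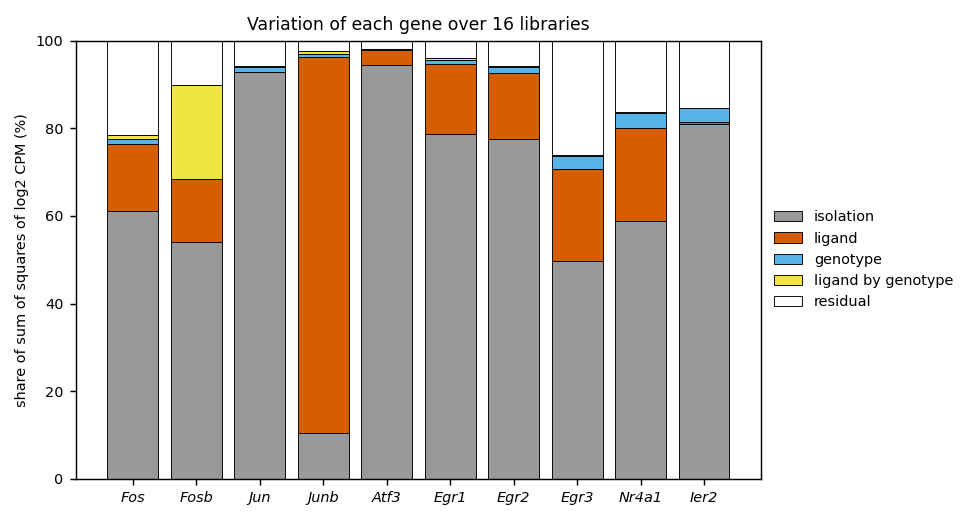
Share of the sum of squares of log2 CPM over 16 libraries (y axis, in percent) held by isolation, ligand, genotype, their interaction and the residual, for each gene (x axis). The ligand segment fills most of the *Junb* bar, at 85.9%, and isolation most of the *Jun* and *Atf3* bars.

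The isolations did not rank alike for all members. In PBS, the highest isolation exceeded the lowest by 3.49 times for *Fos*, 3.39 for *Egr2*, 3.18 for *Atf3* and 2.43 for *Egr1*, against 1.39 for *Jun* and 1.29 for *Junb*. *Fos* and *Egr1* were higher in isolations 3 and 4 than in 1 and 2, *Atf3*, *Jun* and *Ier2* were lowest in isolation 3, and *Egr2* was lowest in isolation 2. Isolation 2 was also the one with the low mural and fibroblast marker sum given above, and isolation 3 had the lowest summed level of 7 endothelial markers, 2617 to 2886 CPM against 3958 to 5999 CPM in the others. The summed level of 8 heat shock and stress genes was 2349.7 to 2520.2 CPM in isolation 3 and 1987 to 2309.6 CPM in the others. None of the 6 mural and fibroblast markers was at 0 in any library. The part of these differences in the levels of the members was not tested. The medians of the heat shock sum were 2160.3 to 2226 CPM over the 4 groups, and the mural and fibroblast sum was lower in KO than in Ctrl cells, with the values given above.

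With the mean of each isolation removed, the members did not vary together as one set. Over the 16 libraries, which share group structure and library size, *Junb* went with *Egr2* (Pearson r = 0.84) and *Egr1* with *Atf3* (r = 0.83). *Junb* ran against *Egr1* (r = -0.87) and *Atf3* (r = -0.80), and *Fos* against *Egr1* (r = -0.74). *Jun* and *Ier2* went with each other (r = 0.67) and with neither *Junb* (0.14 and -0.06) nor *Egr1* (0.09 and 0.20). No member was among the 3 genes most like any other member. The genes most like *Junb* were *Bcor* (r = 0.996), *Foxc2* (0.994) and *Sox18* (0.992), and those most like *Egr1* were *Eif1a* (0.967), *1810013L24Rik* (0.958) and *Usp42* (0.955). *Atf3* was most like *Ifrd1* (r = 0.950), *Cxcl2* (0.939) and *Ripk1* (0.938), *Egr2* most like *Chic2* (0.939), *Nr4a1* like *B4galt1* (0.902) and *Fos* like *Naa50* (0.911). The lowest best match was for *Fosb*, with *Phtf1* at 0.825. These correlations are descriptions over libraries of the same groups.

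Relatives of the members were called in both directions, as were tested genes in general. Of 12 AP-1, EGR and NR4A relatives and EGR co-repressors, 11 could be tested, and 4 rose and 2 fell with the ligand in Ctrl cells, against 3 and 1 in KO cells (54.5% and 36.4% of the 11, beside 9.69% and 5.59% of all tested genes). The median log2 change of the list was -0.02 in Ctrl and -0.01 in KO cells, close to that of all tested genes. *Batf3*, which encodes a small AP-1 factor, rose by 1.57 in Ctrl (SE 0.253, edgeR adjusted p = 2.48e-04) and 1.31 in KO cells (SE 0.281, edgeR adjusted p = 5.74e-03), from a mean of 1.62 CPM in Ctrl PBS. *Maff*, encoding a small MAF protein, rose by 0.72 and 0.62, and *Fosl2* by 0.35 and 0.25, both called in each genotype. *Fosl1* fell by 0.21 in Ctrl cells (edgeR adjusted p = 0.0177), with -0.11 in KO cells (edgeR adjusted p = 0.393). *Nab2*, a co-repressor of EGR proteins and itself an EGR target, fell by 0.18 and 0.26 and was called in both. *Nr4a3* rose by 0.54 in Ctrl cells (edgeR adjusted p = 0.0230) and was at 0.45 in KO cells (edgeR adjusted p = 0.112).

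The SRF, ternary complex, MRTF and CREB genes that act upstream had 1 of 8 members called in each genotype, a share of 12.5% that is near the 9.69% and 5.59% of all tested genes. These were *Creb1* with a rise of 0.47 in Ctrl cells (SE 0.0817, edgeR adjusted p = 5.62e-04) and *Crem*, a CREB relative with repressor isoforms, with a fall of 0.31 in KO cells (SE 0.0665, edgeR adjusted p = 6.66e-03). *Creb1* was at 0.28 in KO cells (edgeR adjusted p = 0.0606), and *Crem* at -0.18 in Ctrl cells (edgeR adjusted p = 0.0996). The other members of the list had values within 0.15 of zero in both genotypes, and the medians of the list were 0.00 and -0.01.

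Of 30 other immediate early genes, all tested, 10 rose and 9 fell in Ctrl cells and 9 rose and 7 fell in KO cells. These were 63.3% and 53.3% of the list, beside 9.69% and 5.59% of all tested genes. The median log2 changes of the list were 0.05 and 0.04. *Sgk1*, encoding a serum- and glucocorticoid-induced kinase, rose most, by 1.495 in Ctrl (SE 0.0994, edgeR adjusted p = 4.55e-09) and 1.43 in KO cells (SE 0.0992, edgeR adjusted p = 1.60e-08). *Dusp6*, a phosphatase that inactivates ERK, rose by 1.21 and 1.01, and *Klf10*, known as a gene induced early by TGF-β, by 0.85 and 0.94. *Ier5l* rose by 0.71 and 0.75, *Hbegf*, encoding an EGF receptor ligand, by 0.47 and 0.49, *Sik1* by 0.37 and 0.44, and *Rhob* by 0.32 and 0.21, all called in both genotypes. *Klf6* fell by 0.40 and 0.30 and was called in both. No gene of these 3 lists passed in KO against Ctrl cells in PBS, and none passed in the test of the difference of ligand responses. With the ligand, *Dusp1* and *Apold1*, named here after their values were seen, were higher in KO than in Ctrl cells, by 0.23 and 0.52 (edgeR adjusted p = 0.0137 for each). They were the 2 genes of the list of 30 called in that comparison (6.67%), beside 0.255% of all tested genes.

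**Figure D5:**
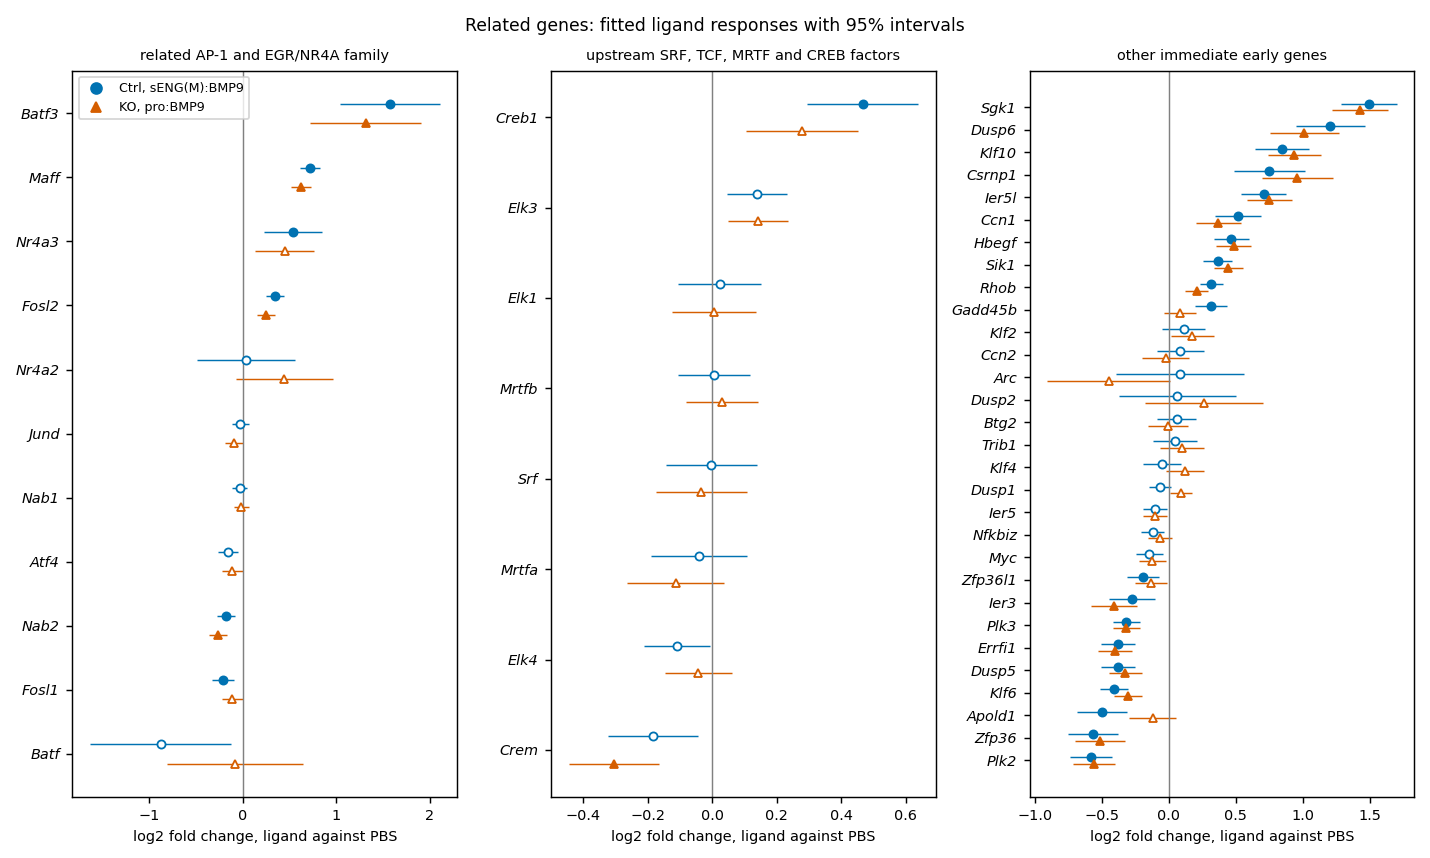
Fitted log2 fold change with the ligand against PBS (x axes) for 11 family relatives (left), 8 upstream factors (middle) and 30 other immediate early genes (right), with bars for the 95% interval. Blue circles are Ctrl cells with sENG(M):BMP9, orange triangles KO cells with pro:BMP9, and filled symbols had an adjusted p under 0.05. In the right panel filled symbols lie on both sides of zero, from *Sgk1* at 1.495 down to -0.58.

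Of the 8 heat shock and stress genes, 1 rose and 1 fell in Ctrl cells by edgeR (25%, beside 9.69% of all tested genes). None passed in KO cells, where 5.59% of all tested genes did. In KO cells 3 of the 8 had an unadjusted p under 0.05 in edgeR, as did 2215 of the 15693 tested genes. *Hsph1*, a chaperone gene, rose by 0.23 in Ctrl cells (edgeR adjusted p = 4.16e-03), and *Ddit3*, encoding the stress factor CHOP, fell by 0.54 (edgeR adjusted p = 3.87e-04). *Ddit3* is listed under 2 gene identifiers, and the row with more counts was used.

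Several members overlap other annotated genes, and whether counting used the strand is not given in the sources used here. On the opposite strand, *Jun* overlaps *Junos*, *Junb* overlaps *Prdx2* and a predicted gene, *Atf3* and *Egr2* each overlap a predicted gene, and *Nr4a1* overlaps predicted genes on both strands. Reads of these neighbours were not separated from those of the members here. *Fos*, *Fosb*, *Egr1*, *Egr3* and *Ier2* overlap no other gene of the annotation.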

How the data were processed

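Per the labels and the study's methods, poly(A) RNA was made into dUTP stranded libraries and sequenced in paired ends, and the submitters' processing notes list HISAT2 2.0.5, featureCounts 1.5.0-p3, DESeq2 1.26.0 and GRCm39. The deposited values used here are whole-number counts per gene as the authors made them, without normalisation. The strand setting and annotation release of the counting are not given in the sources used here. The study's later steps (quantile normalisation, ComBat, DESeq2) are not in these counts and were run as 1 alternative.

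Counts of 16 libraries were fitted together in edgeR 4.0.16 (R 4.3.3) by the quasi-likelihood F test, with TMM factors, filterByExpr (minimum count 10, minimum total 15) and isolation as a replicate block. P-values were two-sided and adjusted by Benjamini-Hochberg over all 15693 tested genes, with a threshold of 0.05, for 5 comparisons. Standard errors were taken as the log2 fold change over the square root of F. CPM were scaled by TMM without a prior count, single-isolation changes and correlations used a prior count of 2, and RPKM used the deposited gene lengths. Libraries with the same replicate number deviated together (mean r = 0.757, minimum 0.670, over 24 pairs) and others did not (mean r = -0.251, 72 pairs), and the library names in the labels give the same number to 1 isolation, so the numbers pair the libraries. The labels do not say how many animals an isolation came from. P-values measure the spread left between these libraries after the isolation block is fitted. No libraries were duplicates of each other. Alternatives were no block, DESeq2 (version 1.42.0), RLE size factors, other filters, the 8 libraries of a comparison alone, the study's steps with sva 3.50.0, and leaving out each isolation or library. The fit was tested on simulated data.

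The members and the lists of related genes were chosen with earlier results of these data known. All 10 members are named in every comparison. Of each related list, up to 8 genes that passed in any ligand or genotype comparison may be named, by smallest p. Likeness was the Pearson correlation of log2 CPM over 16 libraries after isolation means were removed, with the 3 highest genes kept. Sequences and overlaps come from the GRCm39 genome and GENCODE, read with pysam 0.24.0, and the protein sequences of the members were not used here. The sequence upstream of *Egr1* was searched but not printed. The sequence upstream of 1 other member is not reported here.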

Additional observations from a re-analysis of the deposited data

Results flagged for a closer look

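In 3 of the 40 sets of 4 libraries, formed by 10 genes in 4 groups, 1 library stood apart by Dixon's test, where its gap to the nearest other library was divided by the range of the group. Chance marks about 1 in 20 such sets. *Fosb* in Ctrl PBS library 4 had a ratio of 0.853, with 5.20 CPM against 3.44 to 3.66 CPM in the other 3 libraries. *Jun* in KO pro:BMP9 library 3 had a ratio of 0.837, with 179 CPM against 228 to 239 CPM. *Ier2* in Ctrl sENG(M):BMP9 library 2 had a ratio of 0.908, with 35.1 CPM against 25.2 to 26.0 CPM. For *Jun* and *Ier2* the same isolation was also the lowest or the highest of its group in the other 3 groups. The log2 ligand change of *Fosb* in Ctrl cells, -0.06 with all libraries, was between -0.24 and 0.05 when isolations or libraries were left out.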

How the results depend on the processing

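Of the values of single genes under the alternatives, 908 kept their direction and side of the threshold, 29 lost the call, 13 gained one and 70 changed sign. *Junb* kept both ligand calls throughout. Without the replicate block, 1 member passed with the ligand in Ctrl cells (4 with it) and 1 in KO cells (5 with it), and genes called overall fell from 1521 to 167 and from 878 to 91. With isolations or libraries left out, 3 to 5 members passed in Ctrl and 2 to 4 in KO cells. In KO against Ctrl cells with ligand, no filter on low counts and the study's steps each called 1 member, *Junb*, and 517 and 542 genes against 40, and 0 to 1 members passed with libraries left out. In PBS those settings called 204 and 176 genes, and DESeq2 with the isolation 64, against 3, and DESeq2 called 198 genes with ligand. For the difference of responses, no filter called 52 genes, DESeq2 20 and the study's steps 14, against 0, with no member among them. The cause was not tested.

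Signs changed among values close to zero. Without the replicate block, *Atf3* in KO against Ctrl PBS was 0.0039, *Fos* in KO against Ctrl with ligand 0.022 and the difference of *Egr3* -0.015, and with 8 libraries *Fos* with ligand was 0.0077. With isolations or libraries left out, the Ctrl ligand change ran from -0.24 to 0.054 for *Fosb*, -0.024 to 0.035 for *Jun* and -0.068 to 0.062 for *Ier2*, and the KO ligand change from -0.0082 to 0.041 for *Jun*. KO against Ctrl in PBS ran from -0.023 to 0.086 for *Junb*, -0.13 to 0.041 for *Atf3*, -0.030 to 0.11 for *Egr1*, -0.018 to 0.16 for *Egr3* and -0.023 to 0.20 for *Nr4a1*. With ligand it ran from -0.24 to 0.19 for *Fos*, -0.00082 to 0.076 for *Jun*, -0.055 to 0.24 for *Egr3* and -0.0038 to 0.093 for *Ier2*. The difference of responses ran from -0.017 to 0.042 for *Jun*, -0.30 to 0.037 for *Egr2*, -0.15 to 0.21 for *Egr3* and -0.079 to 0.045 for *Ier2*. *Nr4a1* in Ctrl cells also passed without a filter (adjusted p = 3.45e-04), by the study's steps (0.0186) and with 8 libraries (0.0149), and *Atf3* in KO cells by the study's steps (0.0421). Over the alternative settings, the median log2 value of all genes lay between -0.014 and 0.010. With 21 to 239 counts of *Egr2* and 29 to 99 of *Fosb* in a library, depth limits the precision of these genes. No fit to 8 libraries could be made for the difference of responses.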
